A study of Mus musculus with 12 samples.

Results

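Colonic adenomas lacking Tet1 were compared with adenomas heterozygous for both Tet1 and Tdg, site by site, for DNA methylation. All autosomal CCCGGG sites with at least 50 reads in each of the 6 adenomas were taken, which gave 14196 of 164896 autosomal sites. The mice were of strain C57BL/6J, 150 to 160 days old, and every adenoma carried the Min allele of Apc. The Tet1 null group was Tet1-/- Tdg+/+ ApcMin/+ (3 adenomas) and the double heterozygous group Tet1+/- TdgN151A/+ ApcMin/+ (3 adenomas). Adenomas of the other two genotypes of the series, Tet1+/+ TdgN151A/+ ApcMin/+ (Tdg heterozygous, 3 adenomas) and Tet1+/+ Tdg+/+ ApcMin/+ (control, 3 adenomas), stood outside the comparison and serve below as outside values. The compared groups differ at Tet1 and at Tdg, so the loss of the second Tet1 copy and the change of Tdg cannot be told apart. Whether each adenoma came from its own mouse is not in the labels, and the p-values cover the spread among these 6, which may be in part within a mouse.

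Cytosine methylation is put on by DNA methyltransferases and can be removed in steps. The enzyme Tet1 oxidises the methyl group of 5-methylcytosine, and the glycosylase Tdg cuts out oxidised forms of the base, after which repair puts back an unmethylated cytosine. The N151A change falls in the active site of Tdg. Apc holds back Wnt signalling in the intestine, and loss of the remaining normal copy in mice with the Min allele starts adenomas. Intestinal tumours are known to gain methylation at CpG-rich stretches that are unmethylated in normal tissue.

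Methylation was read with digital restriction enzyme analysis, in which SmaI cuts unmethylated CCCGGG sites and XmaI then cuts the methylated ones, so that each read is either methylated or unmethylated. A level below is the percentage of methylated reads at a site after the authors' adjustment with spiked standards. In bulk tissue, a level between 0% and 100% cannot tell a share of cells from a share of alleles. Total reads were 16812476, 18527831 and 8213211 in Tet1 null adenomas 1 to 3, against 17146721, 17729712 and 2349576 in double heterozygous adenomas 1 to 3. The median depth at the 14196 sites was 860.5, 966 and 433 reads in the Tet1 null adenomas and 887, 929 and 111 reads in the double heterozygous adenomas. Double heterozygous adenoma 3 was thus shallow, and it was the lowest of the 6 at 13773 of the sites; a count of 0 at its median depth allows a level of up to 2.70%. The lowest depth of the 6 was 50 to 54 reads at 598 sites just inside the limit and 45 to 49 reads at 661 sites just outside it. Tet1 null adenoma 3 had 0 reads on the Y chromosome and was taken as female, while the other 5 had 485 to 3281 and were taken as male.

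Methylation was higher in Tet1 null adenomas at 106 of 12095 tested sites (0.876%) and lower at 1 (0.00827%). In either direction 107 sites passed (0.885%), in edgeR's quasi-likelihood test of the methylated against the unmethylated counts with a Benjamini-Hochberg adjusted p under 0.05. The other 2101 sites had reads of 1 state alone, unmethylated at 2099 and methylated at 2, and were not tested. At the 106 sites the mean level had a median of 25.5% in Tet1 null adenomas (interquartile range 9.93 to 42.2%) and of 3.60% in double heterozygous adenomas (1.11 to 9.48%). The difference, Tet1 null minus double heterozygous, had a median of 19.96 percentage points (interquartile range 8.86 to 31.0) and ran from 1.25 to 72.3 points. It was at least 10 points at 76 sites, at least 20 at 53, at least 30 at 28 and at least 50 at 4. Over all 12095 tested sites the median difference was 0.0467 points (interquartile range -0.273 to 0.927).

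The number of called sites depended on single adenomas and on the test. The direction at the 107 sites was the same wherever they were tested again. These sites were chosen by the test on the same adenomas, so a kept direction is no separate evidence. Without the shallow double heterozygous adenoma 3, 48 sites passed on the same sites, all of them higher in Tet1 null adenomas (0.398% of 12064), and 47 of these were among the 106. Where sites needed 50 reads in the other 5 adenomas only, 19944 sites qualified, and 56 of 16059 tested sites passed, all higher (0.349%), with 43 among the 106. At all 106 sites the Tet1 null mean stayed above the double heterozygous mean without adenoma 3, and the median difference was then 19.3 points. Leaving out Tet1 null adenoma 1, 2 or 3 gave 71, 66 and 46 called sites, the last without the one female, and leaving out double heterozygous adenoma 1 or 2 gave 141 and 52. Limma, which takes each adenoma's ratio as 1 value, found 2 sites on log2 ratios of counts and 0 on the logit of the adjusted level, where 568 sites had an unadjusted p under 0.05. A quasi-binomial model found 1 site. Limma on the logit after centring each adenoma on its intermediate sites found 77, of which 57 were among the 107 sites of the edgeR test.

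Complete separation of the groups was more often toward a higher level in Tet1 null adenomas. All 3 Tet1 null values lay above all 3 double heterozygous values at 863 tested sites (7.14%) and below them at 204 (1.69%). With a gap of at least 5 points between the lowest value of one group and the highest of the other, 152 sites were higher (1.26%) and 6 lower in Tet1 null adenomas. With a gap of at least 10 points the counts were 65 (0.537%) and 1 (0.00827%), and with at least 20 points 17 (0.141%) and 0. Without double heterozygous adenoma 3, separation was less one-sided, with 1168 sites above (9.66%) and 604 below (4.99%). Gaps of at least 10 points then numbered 85 higher (0.703%) and 1 lower (0.00827%), and gaps of at least 20 points 22 (0.182%) and 0. These counts were not tested. Of the 106 called sites, 102 separated the groups; the 4 others did not. One of these, chromosome 15 position 57807377, singled out after its values were seen, had 0%, 0% and 12.03% in Tet1 null adenomas and 0% in all double heterozygous adenomas (edgeR adjusted p = 0.0229), so that its call came from Tet1 null adenoma 3 alone.

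**Figure D1:**
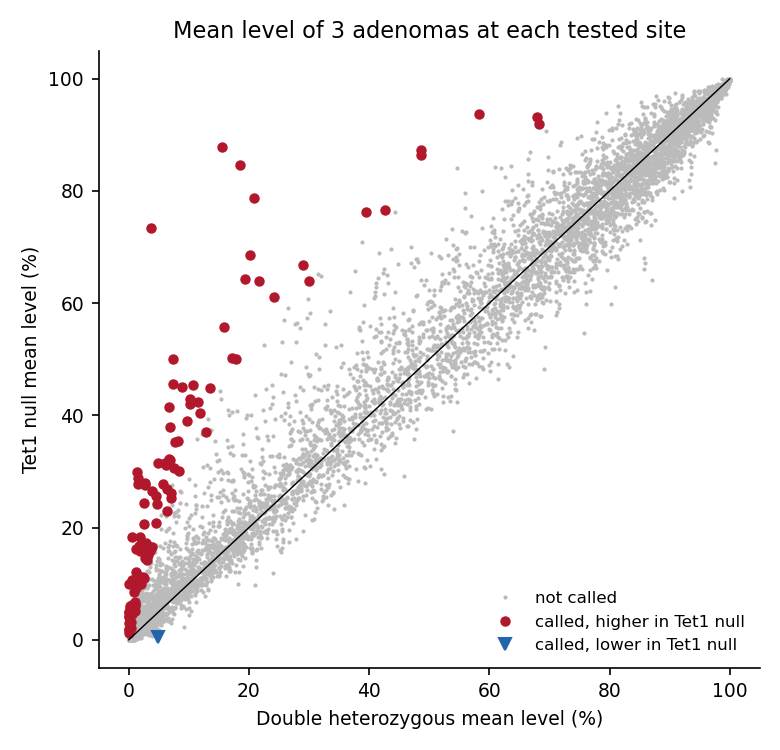
Mean adjusted methylation level (%) at each of the 12095 tested sites in Tet1 null adenomas against double heterozygous adenomas (n = 3 each), with the 106 sites called higher and the 1 called lower in colour. Most of the 106 higher sites are at the left edge, with a median of 25.5% in Tet1 null adenomas and 3.60% in double heterozygous adenomas. A low double heterozygous level is part of how they were chosen. The line marks equal levels.

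The 15 sites with the largest differences had levels of 31.3 to 96.2% in single Tet1 null adenomas. The largest was at chromosome 18, position 43741702 (mm9), with 93.3%, 78.7% and 91.4% in Tet1 null adenomas, against 23.1%, 11.6% and 11.9% in double heterozygous adenomas. All 3 Tet1 null values lay far above the other group, with means of 87.8 ± 7.92% and 15.5 ± 6.53% (SD, n = 3 each; edgeR adjusted p = 2.28e-12, and 4.30e-07 without double heterozygous adenoma 3). These levels rested on 932, 1070 and 440 reads in Tet1 null adenomas and 1190, 863 and 118 reads in double heterozygous adenomas, and the raw level of double heterozygous adenoma 3 had a 95% Clopper-Pearson interval of 6.00 to 18.1%. At that site the Tdg heterozygous mean was 7.29 ± 3.87% and the control mean 26.3 ± 10.6% (SD, n = 3 each).

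A pair of sites 360 bp apart on chromosome 16 came next. Position 35660504 had 91.2%, 54.7% and 74.1% in Tet1 null adenomas, against 4.50%, 5.89% and 0.79% in double heterozygous adenomas (means 73.3 ± 18.3% and 3.73 ± 2.64%, edgeR adjusted p = 1.45e-14). Position 35660144 had 96.2%, 74.5% and 83.1% in Tet1 null adenomas, against 18.7%, 19.6% and 17.3% in double heterozygous adenomas (84.6 ± 10.9% and 18.5 ± 1.13%, edgeR adjusted p = 8.00e-10). At both positions Tet1 null 1 was the highest and Tet1 null 2 the lowest of the Tet1 null adenomas, and the double heterozygous values stayed under 20%. Control means were 2.82% and 11.2% at these positions. The chromosome 18 site and position 35660504 were the 2 that limma called on log2 ratios (adjusted p = 0.0314 at each).

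Other sites of this size differed in how even the Tet1 null adenomas were. At chromosome 3, position 118138315, the levels were 94.8%, 56.3% and 85.1% in Tet1 null adenomas, against 14.5%, 23.9% and 24.0% in double heterozygous adenomas (edgeR adjusted p = 2.27e-07). At chromosome 11, position 95004069, they were 52.9%, 45.3% and 38.7%, against 9.19%, 7.29% and 5.70% (edgeR adjusted p = 0.000107). The Tet1 null values at the chromosome 11 site lay within 15 points of each other, and the control mean there was 22.1 ± 14.2% (SD, n = 3), between both groups. Chromosome 14, position 109311177, was uneven, with 80%, 39.0% and 31.3% in Tet1 null adenomas, against 15.9%, 5.27% and 1.01% in double heterozygous adenomas (edgeR adjusted p = 1.92e-05).

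Of the remaining 9 of the 15, those at chromosome 16 position 91140483, chromosome 8 position 10154587, chromosome 14 position 75856108, chromosome 5 position 144519106 and chromosome 15 position 79659156 differed by 38.8 to 48.3 points and passed again without the shallow adenoma. The 4 others did not pass without it. At chromosome 12, position 31568610, the adjusted p was 0.0339 with all 6 adenomas and 0.750 without adenoma 3 (edgeR), with levels of 76.2%, 62.8% and 61.4% in Tet1 null adenomas, against 23.0%, 52.2% and 11.98% in double heterozygous adenomas. At chromosome 14, position 14766131, it was 0.00251 and 0.440, at chromosome 13, position 100671030, 0.0307 and 0.376, and at chromosome 4, position 66063476, 0.0148 and 0.0769 (edgeR). Those 4 sites kept their direction and lost their call.

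**Figure D2:**
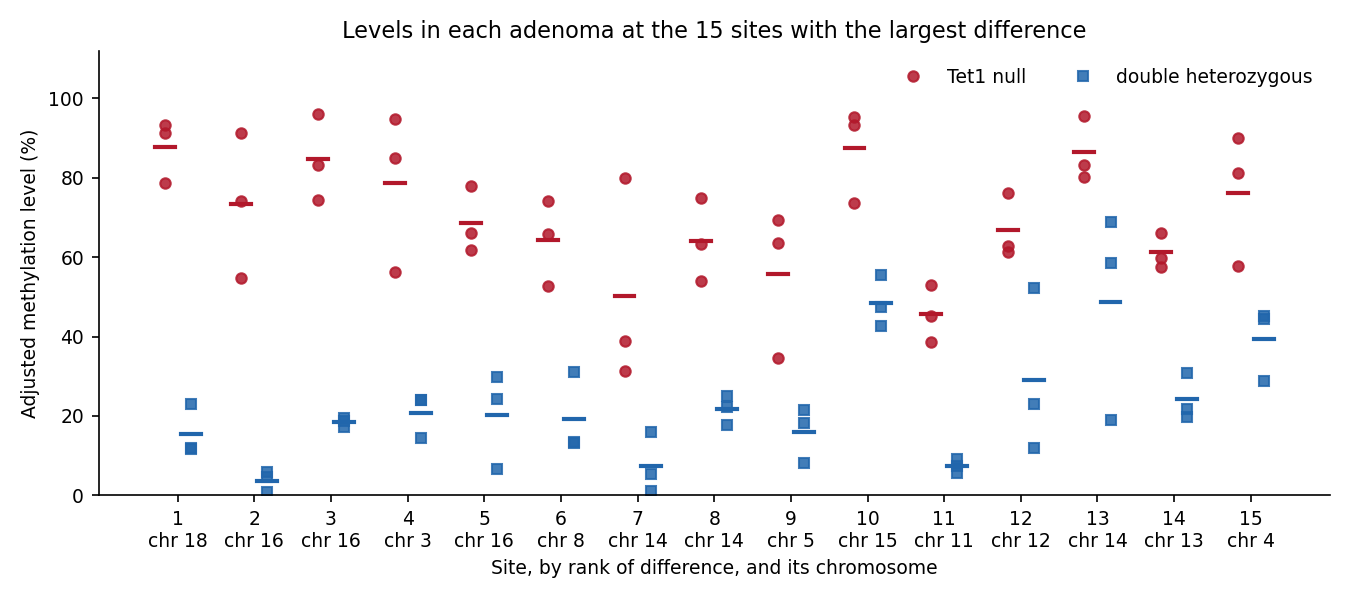
Adjusted methylation level (%) in each adenoma at the 15 called sites with the largest difference, by rank of the difference and labelled by chromosome; Tet1 null adenomas are red circles, double heterozygous adenomas blue squares, and bars are means (n = 3 each). In every column the 3 red circles stand above the 3 blue squares, which was a condition for a site to be shown.

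The double heterozygous mean was below 5% at 60 of the 106 called sites, 5 to 20% at 33 and above 20% at 13. By control mean, 6475 of the tested sites were below 5%, 1135 at 5 to 20%, 2823 at 20 to 80% and 1651 above 80%. A low double heterozygous level is also part of how the sites were chosen, so nothing is read from these counts. Of the 13 sites, 3 had a double heterozygous mean above 50%. Those 3 were chromosome 1 position 89417449, chromosome 14 position 14765813 and chromosome 11 position 116094362. The last had 95.3%, 91.8% and 94.2% in Tet1 null adenomas, against 60.3%, 45.2% and 69.5% in double heterozygous adenomas (edgeR adjusted p = 0.000131, and 0.00413 without the shallow adenoma), and a control mean of 72.2 ± 12.1% (SD, n = 3). Chromosome 1 position 89417449 had 94.2%, 89.4% and 92.2% in Tet1 null adenomas, against 68.3%, 56.8% and 79.5% in double heterozygous adenomas, and did not pass without the shallow adenoma (edgeR adjusted p = 0.0208 and 0.0673). At all 3 sites every Tet1 null value was 89.4% or more.

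Called sites with the smallest differences had levels near 0%. At chromosome 2, position 151401838, the levels were 2.73%, 0.06% and 0.97% in Tet1 null adenomas and 0% in all 3 double heterozygous adenomas, a difference of 1.25 points (edgeR adjusted p = 0.00370). The counts of 0 there allow up to 0.203%, 0.195% and 1.99% in double heterozygous adenomas 1 to 3, and Tet1 null 2 lay below all 3 of these limits. Differences of 1.56 points at chromosome 6, position 97437902, and 1.58 points at chromosome 6, position 5956086, were the next smallest. These are at the scale of the unmethylated standard, which read 1.29%, 0.827% and 0.147% in the Tet1 null libraries and 1.66%, 0.833% and 0.640% in the double heterozygous libraries before adjustment. In all, 14 called sites differed by less than 5 points.

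The 1 lower site, chromosome 2 position 127308217, had 0.48%, 0.42% and 0.41% in Tet1 null adenomas, against 1.07%, 11.9% and 1.65% in double heterozygous adenomas (edgeR adjusted p = 0.0346). It rested on double heterozygous 2 and did not pass without the shallow adenoma (0.0863). Of the lower sites with the next smallest p, chromosome 7 position 139767331 had 0% in all Tet1 null adenomas, against 0.97%, 1.52% and 0% in double heterozygous adenomas (edgeR adjusted p = 0.0650), and did not pass. Likewise chromosome 18 position 52635348 had 68.4%, 95.5% and 90.9% in Tet1 null adenomas, against 97.1%, 97.7% and 97.9% in double heterozygous adenomas, and did not pass (edgeR adjusted p = 0.107). Before adjustment for many sites, 709 sites had p under 0.05 (5.86%), with a higher Tet1 null level at 645 (5.33%) and a lower one at 64 (0.529%).

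The share of called sites was highest at sites of 5 to 20% in the controls, which took no part in the comparison. Below 5% in control the share was near the 0.876% of all tested sites. Of tested sites with a control mean below 5%, 61 of 6475 were higher in Tet1 null adenomas (0.942%), of those at 5 to 20%, 31 of 1135 (2.73%), of those at 20 to 80%, 13 of 2823 (0.461%), and of those above 80%, 1 of 1651 (0.0606%). The median difference of the called sites was 10.03 points in the first class, 27.5 in the second and 36.8 in the third. Sites with at least 3 other CCCGGG sites within 500 bp were called at 7 of 1617 (0.433%), and those with 0, 1 or 2 at 0.912%, 0.965% and 0.887%. Every autosome held at least 1 of the 106, with 10 of 402 tested sites on chromosome 14 (2.49%) and 1 of 584 on chromosome 17 (0.171%). These shares describe the calls and were not compared by a test.

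In the adenomas left out of the comparison, the 106 sites were near the double heterozygous level. The median over the sites was 26.2%, 19.8% and 19.3% in Tet1 null adenomas 1 to 3 and 3.55%, 2.45% and 2.95% in double heterozygous adenomas 1 to 3. It was 3.09%, 2.70% and 3.06% in the Tdg heterozygous adenomas and 3.71%, 3.30% and 2.89% in the control adenomas. At 84 of the 106 sites each Tet1 null value was above each control value, at 91 above each Tdg heterozygous value and at 74 above those of all 9 other adenomas. Of 12084 tested sites with 50 reads in all 12 adenomas, 12.4%, 9.33% and 3.38% were separated in these 3 ways. The double heterozygous mean was above the control mean at 52 of the 106. The sites were chosen by the comparison with the double heterozygous adenomas, so that the high Tet1 null and the low double heterozygous levels are part of the choice, and nothing is read from these counts.

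**Figure D3:**
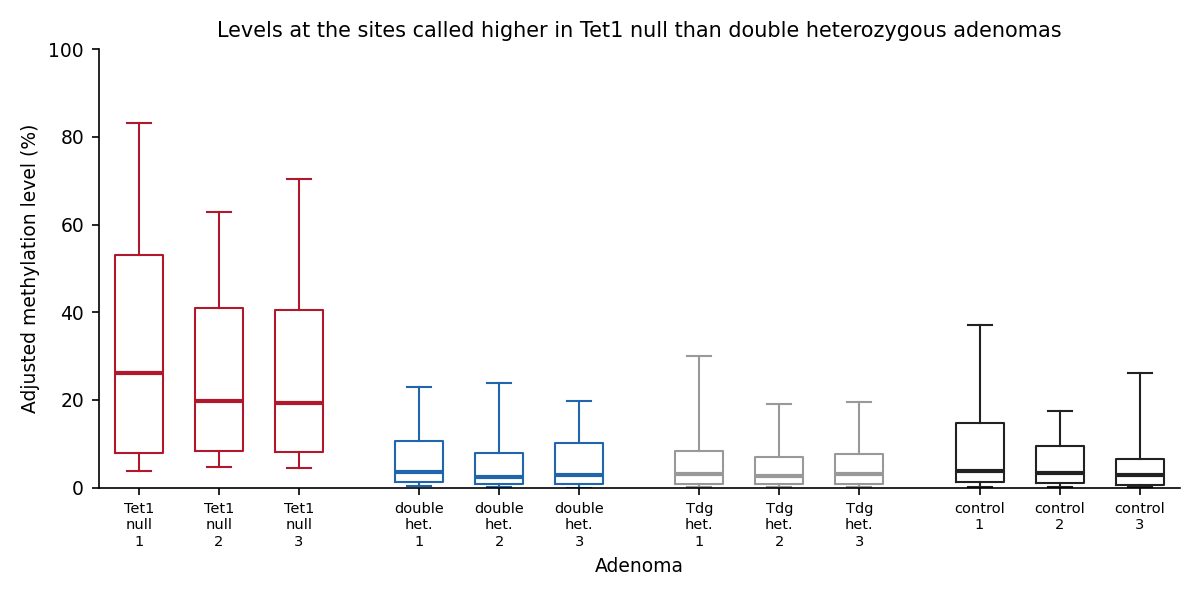
Adjusted methylation level (%) of the 106 called sites in each of the 12 adenomas, with the box from the lower to the upper quartile, the line at the median and whiskers at the 10th and 90th percentiles. The Tet1 null medians are 19.3 to 26.2% and the other 9 medians lie between 2.45 and 3.71%.

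The Tet1 null adenomas were uneven among themselves at part of these sites. The range over the Tet1 null adenomas passed 20 points at 35 sites and 40 points at 7, and Tet1 null 1 was the highest at all 7. Over the 106 sites Tet1 null 1 was the highest of its group at 57, Tet1 null 2 at 24 and Tet1 null 3 at 25. These are the same sites the test chose.

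Part of the called sites were grouped in short runs. The tested sites fell into 6596 runs in which neighbours lay at most 500 bp apart, and reads summed over a run were tested with edgeR in the same way. Neighbouring sites are not independent. At chromosome 14, positions 75856108 and 75856491 had 679 and 676 reads in Tet1 null adenoma 1, and 871 and 864 in double heterozygous adenoma 1. Whether such pairs were read from the same DNA fragments was not tested. Calls of neighbours and of their run are thus no separate evidence. In 83 runs methylation was higher in Tet1 null adenomas (1.26%) and in 1 it was lower, 84 in all (1.27%). Of the 83 runs, 59 held at least 1 called site and 24 none. With Tet1 null adenoma 3 left out, 34 runs were called; with double heterozygous adenoma 1, 2 or the shallow 3 left out, 137, 46 and 42 were called. The 106 higher sites lay in 90 runs, 15 of which held at least 2 of them. In the 90 runs, 90 further sites were tested and not called, and their mean was higher in Tet1 null adenomas at 78, beside 60.1% of all tested sites, with a median difference of 1.78 points (interquartile range 0.252 to 8.11).

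The run with the most called sites spanned chromosome 14, positions 109311177 to 109312055 (878 bp), with 4 tested sites of which 3 were called. Its mean level was 69.5%, 24.3% and 14.0% in Tet1 null adenomas, against 10.3%, 3.57% and 4.09% in double heterozygous adenomas (edgeR adjusted p of the run = 1.45e-05). Tet1 null 1 was highest at all 4 sites, and the fourth, position 109312055, did not pass (0.365). The pair on chromosome 16 averaged 79.0% over the Tet1 null adenomas against 11.1% over the double heterozygous adenomas (adjusted p of the run = 2.07e-16, edgeR). On chromosome 2, positions 6021498 and 6021726 averaged 34.9% against 6.45% in the same order (edgeR adjusted p = 3.29e-05), and here Tet1 null 3, at 46.9% and 59.8%, was the highest. At chromosome 14, positions 75856108 to 75856491, the run averaged 53.4% against 15.9% (edgeR adjusted p = 6.96e-05, and 0.00223 without the shallow adenoma). The run at chromosome 14, positions 14765813 to 14766131, averaged 89.8% against 58.3% and did not pass without the shallow adenoma (edgeR adjusted p = 8.30e-05 and 0.126). Which adenoma was highest thus differed between runs.

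**Figure D4:**
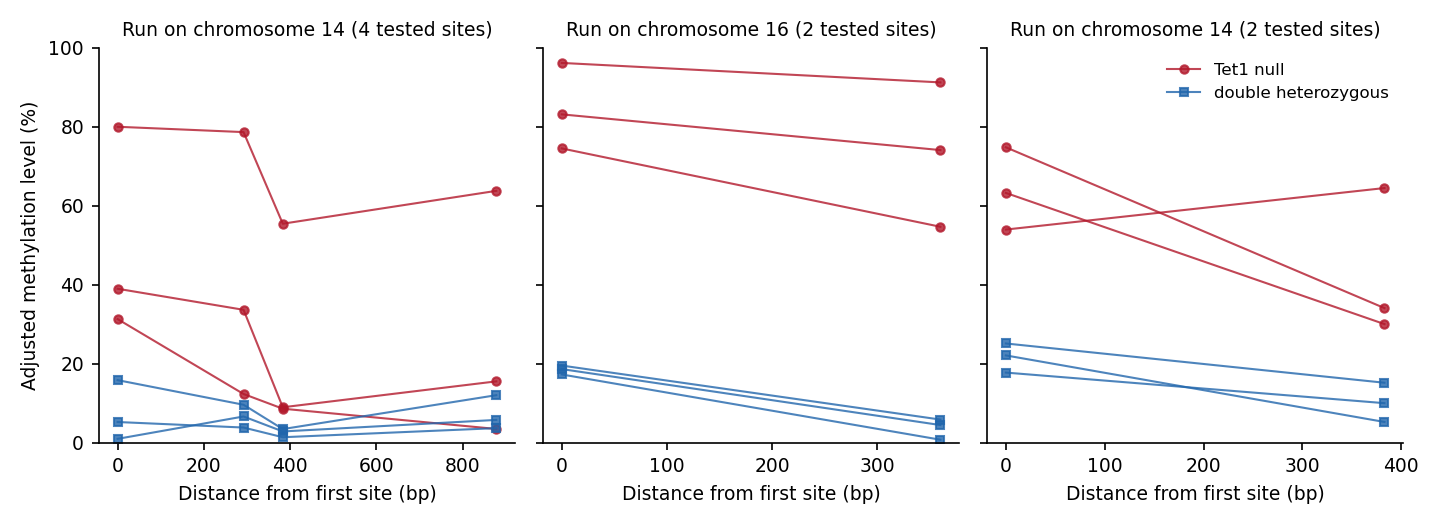
Adjusted methylation level (%) at the called and uncalled tested sites of 3 of the runs with the most called sites, plotted by distance in bp from the first site of the run, with 1 line per adenoma (Tet1 null red circles, double heterozygous blue squares). On chromosome 14 the run of 878 bp has 1 Tet1 null line far above the other two, and in the 360 bp run on chromosome 16 all 3 red lines stand above the blue ones.

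Gains at sites of low level in control were counted in each adenoma. A site was gained if its control mean was below 5% and its level 15% or more in the adenoma. Of 8570 such sites with 50 reads also in the 3 controls, 39, 61 and 58 were gained in Tet1 null adenomas (0.455%, 0.712% and 0.677%, with 95% Clopper-Pearson intervals of 0.324 to 0.622, 0.545 to 0.913 and 0.514 to 0.874). In double heterozygous adenomas 7, 15 and 7 were gained (0.0817%, 0.175% and 0.0817%, with intervals of 0.0328 to 0.168, 0.0980 to 0.289 and 0.0328 to 0.168). The shares of the groups did not overlap. The intervals take the 8570 sites as independent and hold no spread between adenomas, so they do not compare the groups. The mean share was 0.615 ± 0.139% in Tet1 null adenomas and 0.113 ± 0.054% in double heterozygous adenomas (SD, n = 3 each; exact permutation test, two-sided, p = 0.10, the smallest this design allows, and 0.35 adjusted over 7 measures).

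Gained sites were shared among Tet1 null adenomas more than among double heterozygous adenomas, by counts that were not tested. In Tet1 null adenomas 73 sites were gained in 1 of 3, 20 in 2 and 15 in all 3. In double heterozygous adenomas 29 were gained in 1 of 3 and 0 in 2 or 3. The gained sites of both groups overlapped: of the 35 gained in 2 or 3 Tet1 null adenomas, 10 were also gained in a double heterozygous adenoma, as were 5 of the 15 gained in all 3. With the threshold at 10%, 62 and 38 sites were shared by 2 and by 3 Tet1 null adenomas, and 10 and 1 by 2 and by 3 double heterozygous adenomas. With at least 100 reads in all adenomas (5666 sites), 12 and 11 sites were shared by 2 and by 3 Tet1 null adenomas and 0 by double heterozygous adenomas. With the control mean below 2% (8027 sites), 18, 2 and 1 sites were gained in 1, 2 and 3 Tet1 null adenomas. In double heterozygous adenomas 1 site was then gained in 1 of 3 and 0 in 2 or 3. Most of the gained sites thus had a control mean of 2 to 5%. With the first settings, 21 sites were gained in 1 of 3 Tdg heterozygous adenomas, 1 in 2 and 0 in 3. The 15 sites gained in all 3 Tet1 null adenomas lay in 15 runs on 10 chromosomes, with means of 20.7 to 73.3% in Tet1 null adenomas and 1.39 to 13.1% in double heterozygous adenomas. The highest double heterozygous value at these 15 was 21.9% and the lowest Tet1 null value 15.4%. Of the 15, 10 were among the sites called higher by edgeR, beside 0.876% of all tested sites. Both choices used the same Tet1 null values, so this overlap is no separate evidence. Chosen from the 15 after its values were seen, chromosome 11 position 113927258 had 33.2%, 23.7% and 32.6% in Tet1 null adenomas, against 1.75%, 0.47% and 1.96% in double heterozygous adenomas (edgeR adjusted p = 4.39e-09, and 3.09e-06 without the shallow adenoma).

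**Figure D5:**
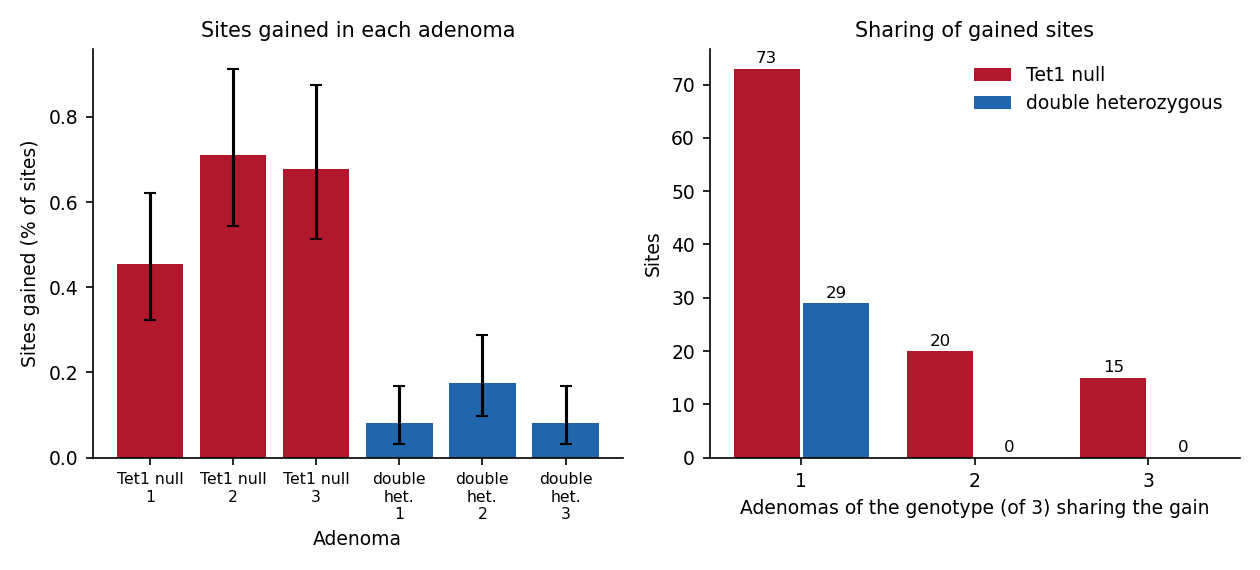
Left, the share (%) of 8570 sites below 5% in control that reached 15% in each adenoma, with 95% Clopper-Pearson intervals that take sites as independent. Right, the number of gained sites found in 1, 2 or 3 adenomas of a genotype. The Tet1 null shares are 0.455 to 0.712% and the double heterozygous shares 0.0817 to 0.175%, and 35 sites were gained in more than 1 Tet1 null adenoma against 0 in more than 1 double heterozygous adenoma.

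Averages over all sites overlapped between the groups, and averages over sites below 5% in control did not. Over all 14196 sites the mean level was 22.5%, 25.7% and 24.4% in Tet1 null adenomas, against 24.9%, 22.7% and 23.1% in double heterozygous adenomas (difference 0.606 points, exact permutation p = 0.70, two-sided). At sites below 5% in control it was 0.667%, 0.896% and 0.859% in Tet1 null adenomas, against 0.522%, 0.463% and 0.482% in double heterozygous adenomas, with no overlap (difference 0.319 points, exact permutation p = 0.10, and 0.35 adjusted over 7 measures). At sites of 20 to 80% in control it was 53.7%, 64.6% and 59.8% in Tet1 null adenomas, against 62.1%, 55.8% and 57.3% in double heterozygous adenomas, with overlap in both directions (difference 0.952 points, exact permutation p = 0.80). At sites above 80% the groups overlapped as well, at 88.8%, 91.5% and 90.5% in Tet1 null adenomas, against 91.4%, 90.02% and 89.95% in double heterozygous adenomas. In the class of 20 to 80% the SD was 5.45 points over the Tet1 null adenomas and 3.31 points over the double heterozygous adenomas, larger than the difference, and the part of this spread in the calls above was not tested.

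Losses were few in both groups. Of 1653 sites above 80% in control, 1.09%, 0.0605% and 0.121% were at 60% or less in Tet1 null adenomas, against 0.181%, 1.03% and 0.242% in double heterozygous adenomas (difference -0.0605 points, exact permutation p = 0.70, two-sided). Tet1 null 1 and double heterozygous 2 were the high ones, and the groups overlapped. Without double heterozygous adenoma 3 the differences were 0.383 points over all sites, 0.315 points at sites below 5% in control and 0.486 points in the share gained.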

How the data were processed

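DNA with added methylation standards was digested by SmaI and then XmaI, per the labels' protocols. The submitters' processing notes name Trim Galore, Bowtie2 and the build mm9, with no versions. The extraction protocol names a rat build, while the file headers name mm9. Per the file headers, the authors' counts give unmethylated and methylated reads for every CCCGGG site. Deposited percent values hold the raw level and one adjusted by the authors with the standards, per the labels; the 2 differed by at most 0.41 to 2.24 points per compared adenoma at sites with at least 50 reads. Counts were used for tests and adjusted percent levels for values.

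The members, lists and tests were chosen with earlier results of these data known. Autosomal sites with at least 50 reads in the 6 adenomas were kept, those with reads of 1 state alone left out, and the rest tested with edgeR 4.0.16 in R 4.3.3 (quasi-likelihood, 1 depth coefficient per adenoma, 1 methylated-count coefficient per genotype, equal library sizes, no dispersion trend, common dispersion 0.119). Tests were two-sided; p-values were adjusted by Benjamini-Hochberg over all sites tested, with a threshold of 0.05. Limma 3.58.1 was an alternative on log2 ratios with 2 reads added to each count and on logits bounded at 0.5 and 99.5%. The code was tested on simulated data. Differences are Tet1 null minus double heterozygous, and values mean ± SD over 3 adenomas. Exact permutation tests of 3 against 3 cannot go below 0.10. Intervals and limits for a count of 0 (3 counts) cover counting error only, since the labels name no molecular identifiers. Sex was taken from Y reads. Between adenomas of a genotype, 19.8 to 40.1% of sites differed (chi-square p under 0.05), so none looked like 1 library deposited again.

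Named sites were the 15 called sites with the largest difference and separate groups, the lower sites called or with the 3 smallest p, the 5 runs with the most called sites, the 3 called sites with the smallest difference and the 3 with the highest double heterozygous level. The gene table at hand is of GRCm38.p6 and coordinates were not converted, so sites were not assigned to genes, gene lists were not applied, the absence of Tet1 was taken from the labels, and no sequence is printed. Figures were drawn with matplotlib 3.10.9.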

Additional observations from a re-analysis of the deposited data

Results flagged for a closer look

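X chromosome sites stood outside the comparison, and their mean level was raised in Tet1 null adenoma 3 alone of the 6. With X sites included, 42 of 180 tested X sites were higher in Tet1 null adenomas and 0 lower (edgeR, adjusted p under 0.05). Over all chromosomes 138 of 12275 sites were called in that fit. When Tet1 null adenoma 3 was left out, 1 X site was called. The mean X level was 14.97%, 16.2% and 35.2% in Tet1 null adenomas 1 to 3, against 15.8%, 14.8% and 15.6% in double heterozygous adenomas 1 to 3. Only Tet1 null adenoma 3 had no Y reads among the 6. In the adenomas outside the comparison, those without a male number of Y reads had 34.9% and 33.8% (Tdg heterozygous 1 and 3) and 33.0% and 35.3% (control 2 and 3), and the male ones 14.5% (Tdg heterozygous 2) and 14.7% (control 1).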

How the results depend on the processing

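The direction at the 107 called sites was the same in every alternative that tested them, and 0 named sites reversed. The sites were chosen on the same reads, so a kept direction is no separate evidence. Of the values of named sites under the alternatives, 388 kept their side of the threshold, 212 lost it and 1 gained it. The number of called sites was 107 and ran from 46 to 141 when single adenomas were left out, with 56 for sites covered in the 5 adenomas other than double heterozygous 3. It was 1 at a minimum of 300 reads (115 sites tested), 44 with at least 10 reads of both states, 43 with reads thinned to the lowest depth, 2 and 0 with limma on log2 ratios and on logits and 1 with the quasi-binomial model. It was 47 with X sites included and Tet1 null 3 left out, an alternative chosen after seeing the data. Minimums of 20 and 100 reads gave 117 and 78, and the fit of all 12 adenomas 132. With the replicate number as a block 34 sites passed. Same-numbered adenomas deviated with correlations of -0.14, 0.10 and 0.38, not every adenoma correlated best with its own number, and the numbers were not taken as pairs. Called runs, 84 in the test of all 6 adenomas, ranged from 34 to 137 over single adenomas left out. The difference of mean levels ranged from -0.13 to 1.44 points over all sites, from -1.66 to 3.78 at 20 to 80% in control and from -0.80 to 0.54 above 80%, with 0.17 on the raw level. The share lost ranged from -0.39 to 0.21 points, and was 0.22 at 100 reads. The cause was not tested. At the median depth of the shallow adenoma, a count of 0 allows a level of up to 2.70%.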
